A study of Mus musculus with 4 samples.

Results

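Long acetylated regions are stretches of the genome in which peaks of acetylated histone H3 lysine 27 (H3K27ac) lie close together and cover an unusually large amount of DNA. They were chosen by joining the peaks of the list that the authors derived from both biological replicates wherever the gap between neighbours was 12.5 kb or less, and by keeping regions in which peaks covered 20 kb or more. The rule left 398 of 20739 joined regions, or 1.92%. These held 8076 of 63061 peaks (12.8%) and 12.4 of 66.9 Mb of covered DNA (18.5%). Covered length therefore chose the members, and their lengths are given as a description.

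The tissue was heart of female B6CASTF1/J mice at 2 months of age, the F1 generation of a cross between the strains C57BL/6J and CAST/EiJ, with no treatment named in the labels. Chromatin immunoprecipitation with an antibody to H3K27ac was sequenced in 4 libraries that form 1 group: 2 pools of 2 heart samples served as biological replicates, and each pool was run as 2 technical replicates. Both pools carry the same donor identifier, so differences between them may be technical. The lists used here give peaks and no reads, so sequencing depth is unknown and no region could be tested between conditions.

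H3K27ac is deposited by the acetyltransferases p300 and CBP on nucleosomes beside active promoters and enhancers. Clusters of such marks, often called stretch enhancers or super-enhancers, are known to gather at genes that give a cell type its identity. Joining neighbouring peaks is a common step in defining them. Here the regions were kept by covered length, with promoter peaks included and no ranking by signal. Whole heart holds muscle cells, endothelium, mural cells, fibroblasts and blood cells together, and a mark carried by more cells of a type cannot be told apart from a longer mark within each cell.

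The word enhancer describes the regions only in part. Peaks at a TSS, meaning an annotated start of transcription no more than 1 kb away, made up 36.2% of their covered length, and only 20 of the 398 had no such peak. The widest peak of a region lay at a TSS in 246 (61.8%) and was distal, over 2.5 kb from any TSS, in 135 (33.9%). The regions are therefore called long acetylated regions in what follows.

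Sequence is shown first for the summit of the strongest distal peak, by the authors' deposited fold, in the longest region of each of 7 gene groups, because these summits are where the regions were most enriched away from promoters. Each run is 200 bases of the plus strand of GRCm38, the assembly of mm10, centred on the deposited summit. Capitals mark matches, on either strand, to any of 21 consensus sequences of transcription factors that are described further on. The windows for Tns1 (chr1:74008863-74009062), Nfia (chr4:97868671-97868870) and Nrp1 (chr8:128450720-128450919) lie in introns of those genes, 115, 96.0 and 92.2 kb after the gene's 5′ end. The window for Col4a1 (chr8:11323140-11323339) lies 10.4 kb before its 5′ end, in an intron of the neighbouring Col4a2, and that for Ldb3 (chr14:34543987-34544186) overlaps an annotated exon 44.6 kb into the gene. The window for Atp2a2 (chr5:122520496-122520695) is intergenic, 18.4 kb before the gene. The window for Ppara (chr15:85670360-85670559) is 64.5 kb before Ppara, in an intron of the long noncoding gene Lncppara.
Tns1: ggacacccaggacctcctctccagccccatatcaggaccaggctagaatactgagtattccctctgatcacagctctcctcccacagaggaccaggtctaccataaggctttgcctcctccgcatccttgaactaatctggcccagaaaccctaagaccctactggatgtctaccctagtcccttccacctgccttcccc
Nfia: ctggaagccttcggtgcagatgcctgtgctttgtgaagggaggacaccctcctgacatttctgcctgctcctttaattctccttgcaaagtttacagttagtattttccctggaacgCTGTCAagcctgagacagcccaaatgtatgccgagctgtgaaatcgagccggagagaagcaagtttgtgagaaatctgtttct
Ldb3: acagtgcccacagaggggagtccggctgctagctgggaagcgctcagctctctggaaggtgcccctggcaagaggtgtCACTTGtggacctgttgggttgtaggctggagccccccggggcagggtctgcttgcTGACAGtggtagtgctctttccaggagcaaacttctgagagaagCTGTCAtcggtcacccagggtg
Atp2a2: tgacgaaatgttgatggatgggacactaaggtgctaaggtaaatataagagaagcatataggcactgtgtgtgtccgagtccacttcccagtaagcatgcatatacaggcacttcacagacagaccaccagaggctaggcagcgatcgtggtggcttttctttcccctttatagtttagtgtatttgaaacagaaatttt
Nrp1: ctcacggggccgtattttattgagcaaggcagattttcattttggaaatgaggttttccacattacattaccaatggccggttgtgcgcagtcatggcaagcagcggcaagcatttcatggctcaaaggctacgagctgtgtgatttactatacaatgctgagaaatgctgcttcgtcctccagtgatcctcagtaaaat
Col4a1: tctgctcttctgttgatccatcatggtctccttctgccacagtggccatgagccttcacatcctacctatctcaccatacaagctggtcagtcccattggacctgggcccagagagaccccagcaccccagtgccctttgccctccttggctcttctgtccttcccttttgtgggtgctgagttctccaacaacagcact
Ppara: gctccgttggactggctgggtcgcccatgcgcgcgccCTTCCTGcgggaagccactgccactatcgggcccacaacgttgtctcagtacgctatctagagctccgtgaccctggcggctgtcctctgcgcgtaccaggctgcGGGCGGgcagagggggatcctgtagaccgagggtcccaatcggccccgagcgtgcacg

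Of these 7 windows 4 held no match. Nfia held a match to MEIS, Ldb3 held an NKX2 match and a pair of MEIS matches, and Ppara held an ETS match and a GC box. The Ppara window stood apart in composition, with 68.0% GC and 20 CpG dinucleotides, where the median distal window held 2. Of all distal windows 126 of 37273 distal windows (0.338%) reached that GC content. Its peak was 13.5 kb wide with a deposited fold of 39.7, and only 2 distal peaks of the whole list had a fold that high. No TSS is annotated within 2.5 kb of that peak in GENCODE M21.

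Several of the regions contain microRNA genes known in heart or vessels, and their mature sequences from RefSeq (GRCm38.p6) are given with the seed, bases 2 to 8, in capitals. That reference holds 1005 hairpins, of which 32 (3.18%) lay inside a long region. The let-7b and let-7c-2 genes lay 36.9 and 36.1 kb downstream of the Ppara summit shown above. The genes of miR-27b and miR-24 lay in the region at 2010111I01Rik and Fancc (55.3 kb covered), miR-126a in an intron of the endothelial gene Egfl7 (34.4 kb), miR-132 and miR-212 in a region of Smg6 (35.8 kb), and miR-208b in the cardiac myosin region of Myh7 (25.2 kb).
let-7b-5p: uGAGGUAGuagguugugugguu
let-7c-5p: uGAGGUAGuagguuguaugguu
miR-27b-3p: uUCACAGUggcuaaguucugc
miR-24-3p: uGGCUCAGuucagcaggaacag
miR-126a-3p: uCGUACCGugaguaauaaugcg
miR-132-3p: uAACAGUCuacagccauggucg
miR-212-3p: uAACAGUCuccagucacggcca
miR-208b-3p: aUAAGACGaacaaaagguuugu

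The members of a pair share a seed in 2 cases. The let-7b and let-7c seeds are both GAGGUAG, and those of miR-132 and miR-212 are both AACAGUC. Mir23b, Mir143, Mir145a and Mir378a also lay inside long regions.

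The length of the regions varied by a factor that the threshold does not set at its upper end. Covered length ran from 20.0 to 111 kb with a median of 26.6 kb (quartiles 23.0 and 34.2), and 67 regions (16.8%) held 40 kb or more. They spanned 24.1 to 211 kb (median 67.2), of which peaks covered 44.8% at the median. A typical region had 19 peaks (6 to 72), a widest peak of 5.80 kb and a longest gap of 9.53 kb. At the threshold the last regions kept lay at Rapgef3 (20085 bp), Smad7 (20025 bp) and Vps37b (20011 bp). The first left out lay at Iqschfp (19988 bp), Spata13 (19956 bp) and Ryr2 (19947 bp), the calcium release channel of the sarcoplasmic reticulum.

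**Figure D1:**
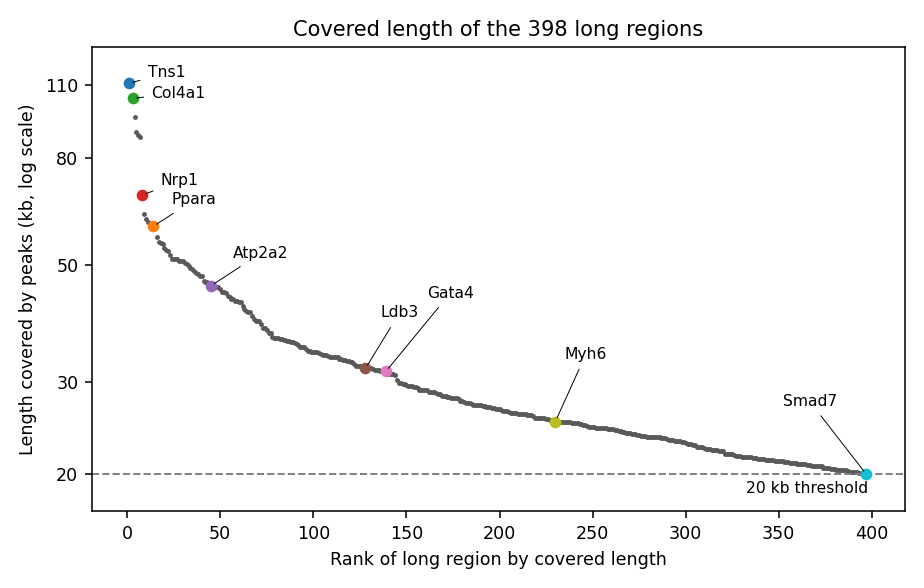
Length covered by peaks (kb, log scale) against rank for the 398 long regions, with 9 regions named by a gene they overlap and the 20 kb threshold as a dashed line. A few regions at the left reach 111 kb, and most lie between 20 and 35 kb.

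The longest regions each followed 1 or 2 genes. Tns1, which encodes tensin, a link between actin and integrins at focal adhesions, had 69 peaks over 211 kb, all but 0.752 kb of their length inside the gene. Its covered length was 111 kb in the replicated list, 91.9 kb in the list of biological replicate 1 and 129 kb in that of replicate 2. Rbpms, an RNA-binding regulator of splicing in muscle, had 105 kb (84.9 and 115 kb in the single lists), in a region that reaches Gtf2e2. The third, with 104 kb (85.8 and 118 kb), spanned the paired genes Col4a1 and Col4a2, which share a promoter region and encode chains of collagen IV. Replicate 2 was longer at all 3. In both single lists the collagen region exceeded the Rbpms region, the reverse of their order in the replicated list, and their difference was far smaller than that between the lists.

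The remaining members of the 20 longest lay at genes of several kinds. Tcf4, a basic helix-loop-helix factor, had 87.9 kb in 61 peaks (73.5 kb in list 1 and 99.4 kb in list 2). The nuclear factor I genes Nfia and Nfib had 62.5 and 59.3 kb. For Nfia the single lists gave 53.1 and 71.0 kb, and for Nfib 45.9 and 71.9 kb. Ablim1, an actin-binding LIM protein, had 89.8 kb in 72 peaks, the most peaks of any long region, and Snrk, a kinase related to AMPK, had 88.4 kb together with Ano10. Further down stood Fam53b with Lhpp and an Fgfr2 gene model (61.3 kb), Cuedc1 with Mrps23 (60.4 kb), Trak1 (59.5 kb), Rapgef2 (58.8 kb), Itpkb (56.6 kb), 2010111I01Rik with Fancc (55.3 kb), Vps13d (55.1 kb), Susd6 (54.8 kb) and Frmd8 (54.0 kb). The Frmd8 region was built differently from the rest of the 20. It held 10 peaks that covered 82.1% of its span, with 39.3% of the length in 1 peak of 21.3 kb, and it contains the noncoding genes Neat1 and Malat1.

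Regions were matched to genes by overlap with the body of a protein-coding gene in GENCODE M21. Of 21951 such genes, 754 (3.43%) overlapped a long region, and 688 (3.13%) had a TSS inside one. Long genes overlapped more often: the share was 2.83% of genes under 10 kb, 6.63% of those of 100 to 200 kb and 5.61% of longer ones. Most regions were simple in gene content: 215 (54.0%) overlapped 1 gene, 69 overlapped 2 and 93 overlapped 3 or more. Of the 215, 64 lay wholly inside the gene, and 21 of all members touched no protein-coding gene. The counts for gene lists below are descriptions against these shares. Under other settings the share of all genes moved too. It was 10.7% when joined within 25 kb and 0.501% with peaks near a TSS left out. It was 2.15% without replicate 2, meaning from the list of replicate 1 alone, and 5.23% without replicate 1. Unless stated otherwise, the length given with a gene is that of its whole region, which can overlap other genes.

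Endothelial genes had the highest share of the 26 lists, with 18 of 36 genes. Joined within 25 kb their share (55.6%) was below those of RNA-binding (60.0%) and immediate early genes (56.7%). With peaks near a TSS left out it (11.1%) was below basement membrane (21.4%), RNA-binding (20.0%) and adaptor genes (13.3%). With peaks at or above the median fold it equalled immediate early genes at 33.3%. Under the other alternatives it was highest. Nrp1, a coreceptor for VEGF and semaphorins, led with 68.0 kb, which was 53.3 kb in list 1 and 77.8 kb in list 2. Elk3, an ETS factor, had 53.5 kb (48.0 and 58.9 kb). Eng, which encodes the TGF-beta coreceptor endoglin, had 51.0 kb (47.2 and 55.0 kb), and Ets1, another ETS factor, had 45.4 kb (36.7 and 51.8 kb). In each of these 4 the shorter value came from replicate 1, and both values were above 20 kb. The Eng region overlaps 4 genes, with 19.7 kb in Eng. Of the 18 endothelial regions 13 kept 20 kb in the list of replicate 1. Cdh5, Tie1, Tek and Flt1, which also mark endothelium, were among the 18 without a long region.

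Of the cardiac transcription factors 11 of 27 (40.7%) overlapped a long region. After Nfia and Nfib came Nfix with 36.4 kb (30.2 kb in list 1 and 41.5 kb in list 2) and Nfic with 34.9 kb (30.1 and 37.2 kb). Nfix had a second region of 20.9 kb beyond a gap of 12.9 kb. Among the core factors of heart development, Gata4 had 31.4 kb in 11 peaks (28.2 and 33.2 kb), of which 49.4% lay in 1 peak of 15.5 kb. The widest peak lay at a TSS in all 11 regions of these genes. Hand2, Myocd, Mef2d, Nkx2-5, Mef2c and Gata6 completed the 11, at 23.8 to 33.8 kb. Tbx5, Tbx20, Tead1 and Meis1 were among the 16 with none.

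Contractile and calcium genes followed with shorter regions. Of the sarcomere and Z-disc list 8 of 30 (26.7%) overlapped a long region. The count was 3 of 30 without replicate 2 and 12 of 30 without replicate 1. Ldb3, a Z-disc protein, had 31.8 kb (27 kb in list 1 and 39.8 kb in list 2). Actn2, the Z-disc alpha-actinin, had 31.5 kb (24.1 and 43.0 kb), and Lmod2, a regulator of thin filament length, had 28.5 kb (26.0 and 31.6 kb). Tnnc1, troponin C, had 27.9 kb (21.3 and 31.9 kb) in a region with 5 other genes. The cardiac myosins Myh6 and Myh7 shared 1 region of 25.2 kb, which was 19.9 kb in list 1 and 34.6 kb in list 2, a ratio of 1.74. Ttn, Actc1, Tnnt2, Mybpc3 and Myl2, which encode abundant proteins of the heart sarcomere, overlapped none.

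Of the calcium handling and rhythm list 6 of 28 (21.4%) overlapped one. Atp2a2, which pumps calcium back into the sarcoplasmic reticulum, had 45.7 kb (39.2 kb in list 1 and 56.8 kb in list 2), of which 29.7 kb lay before the gene and 13.4 kb in it. Jph2, which holds the sarcoplasmic reticulum near the surface membrane, had 40.1 kb (32.8 and 46.3 kb). Pln, the inhibitor of that pump, shared 24.3 kb with Cep85l (21.3 and 25.5 kb), and Adrb1, the main beta-adrenergic receptor of heart muscle, had 23.5 kb (21.3 and 26.2 kb). Kcnh2 and Cacna1c were the others. In the intercalated disc list 2 of 14 (14.3%) overlapped, Jup (27.1 kb) and Lims2 (25.2 kb).

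Genes of fatty acid use had 8 of 26 (30.8%), and those of glucose use had 2 of 25 (8.0%). Joined within 25 kb, where 10.7% of all genes overlapped a long region, the counts were 12 of 26 and 9 of 25. With peaks near a TSS left out, where 0.501% of all genes did, they were 1 of 26 and 1 of 25. The difference between these lists was not tested. Ppara, the nuclear receptor that drives fatty acid oxidation genes, had 59.3 kb, which was 55.6 kb in list 1 and 61.6 kb in list 2. Only 2.57 kb of it lay in the gene and the rest lay before its 5′ end. Ppargc1b, a coactivator, had 45.6 kb (35.8 and 53.3 kb) and Cd36, a fatty acid carrier, had 39.1 kb (36.2 and 45.2 kb). A second Cd36 region of 28.4 kb lay 19.4 kb away, with 78.8% of its length in 1 peak of 22.4 kb, the largest share in a single peak among the 398. Lpl, lipoprotein lipase, had 27.1 kb (20.8 and 29.2 kb), and Hk2 (24.6 kb) and Insr (23.1 kb) were the 2 of the glucose list.

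Structural and vessel-wall genes came next. The adaptor proteins of actin and focal adhesion had 6 of 30 (20.0%), Tns1 and Ablim1 among them, with Actn4 at 51.4 kb (45.0 kb in list 1 and 54.1 kb in list 2). Without replicate 1 the count was 10 of 30. Ablim1 had a second long region across a gap of 13 kb, and together they covered 138 kb. Of basement membrane genes 5 of 14 (35.7%) overlapped, Col4a1, Col4a2, Hspg2 (43.2 kb), which encodes perlecan, and the laminin chains Lamc1 (24.6 kb) and Lama4 (24.5 kb). Of the mural cell list 5 of 18 (27.8%) did, with Mylk, the myosin light chain kinase of smooth muscle, longest at 27.1 kb, then Des (23.6 kb), Abcc9 (23.0 kb) and Ebf1 (22.2 kb). Des was also counted on the sarcomere list, and only 2.35 kb of its region lay in Des. The mural markers Acta2, Myh11, Tagln, Rgs5 and Pdgfrb were among those with no long region. Only 1 of these 5 mural regions kept 20 kb in the list of replicate 1. The mural count was 0 of 18 without replicate 2, 8 of 18 without replicate 1 and 2 of 18 in the pooled list. The fibroblast and matrix list had 3 of 22 (13.6%), Timp3 (35.0 kb), Sparc (23.2 kb) and Fbn1 (20.4 kb), and none of the fibrillar collagens Col1a1, Col1a2 and Col3a1.

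Regulators that act in many cell types were also present. The immediate early list holds genes induced quickly by stimuli and also relatives of such genes, Klf13 and Klf9 among them. Of this list 11 of 30 (36.7%) overlapped a long region, and induction was not measured. Klf13 had 51.0 kb (48.9 kb in list 1 and 51.3 kb in list 2), Dusp1, a MAP kinase phosphatase, 49.1 kb (43.6 and 56.4 kb), Mcl1, a survival factor of the BCL2 family, 45.4 kb (42.4 and 48.3 kb), and Klf2, also on the endothelial list, 33.2 kb (27.3 and 37.6 kb). Only 4.39 kb of the covered length lay in Mcl1 and 2.62 kb in Klf2, and each of these 2 regions overlaps 3 genes. The longer Dusp1 region also overlaps 3 genes, and 20.3 kb lay in Dusp1 over its 2 long regions. The annotated Dusp1 gene is 56.5 kb long, and this longer region does not reach its 3′ end. Another gene held more of that region's covered length than Dusp1 did. Fos, Jun, Junb, Egr1 and Nr4a1 were among the genes of this list with no long region. The genes of the list are short, with a median of 5.29 kb against 17.4 kb for all protein-coding genes. Of RNA-binding and splicing genes 6 of 15 (40.0%) overlapped: after Rbpms came Rbm20, which controls titin splicing, with 51.5 kb, Rbfox2 with 34.6 kb and Mbnl2 with 25.2 kb. Growth factor and TGF-beta signalling had 5 of 30 (16.7%), with Ski (43.7 kb), Epas1 (42.7 kb), Pdgfb (23.9 kb) and Acvrl1 (23.5 kb) longest. That count was 3 of 30 without replicate 2 and 9 of 30 without replicate 1. The clock list had 2 of 19 (10.5%), Nr1d1 (52.4 kb) and Per1 (31.1 kb), while Arntl, Clock, Cry1 and Per2 were among those with none. That count was 1 of 19 in the pooled list and 0 of 19 with peaks near a TSS left out. The Nr1d1 region overlaps 5 genes, with 7.4 kb in Nr1d1, and the Per1 region overlaps 9, with 6.19 kb in Per1.

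The remaining lists had 2 genes or fewer in long regions. The fetal and stress program had 2 of 12 (16.7%), Myh7 and Gdf15, heat shock and chaperones 1 of 15 (Bag3, 24.5 kb) and housekeeping genes 1 of 18 (Eef2, 21.7 kb). Leaving out a replicate gave 1 or 2 of 12, 1 or 3 of 15 and 1 or 2 of 18 for these lists, and 1 or 3 of 25 for glucose use. Of hepatocyte genes 1 of 18 was counted, Apoa2, but no base of that gene was covered, since it lies in a gap between peaks. Lists for macrophages (16 genes), lymphocytes (15), erythroid cells (10), neurons (16), skeletal muscle (20) and keratinocytes (12) had none. Shorter acetylated regions at these genes were not counted. The share of all protein-coding genes was 3.43%, and at that share a list of 10 to 20 genes can readily hold none. Counts of 1 gene in 15 or 18 are also close to it. Gene length is not the same across lists, and neurons had a median gene length of 172 kb.

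**Figure D2:**
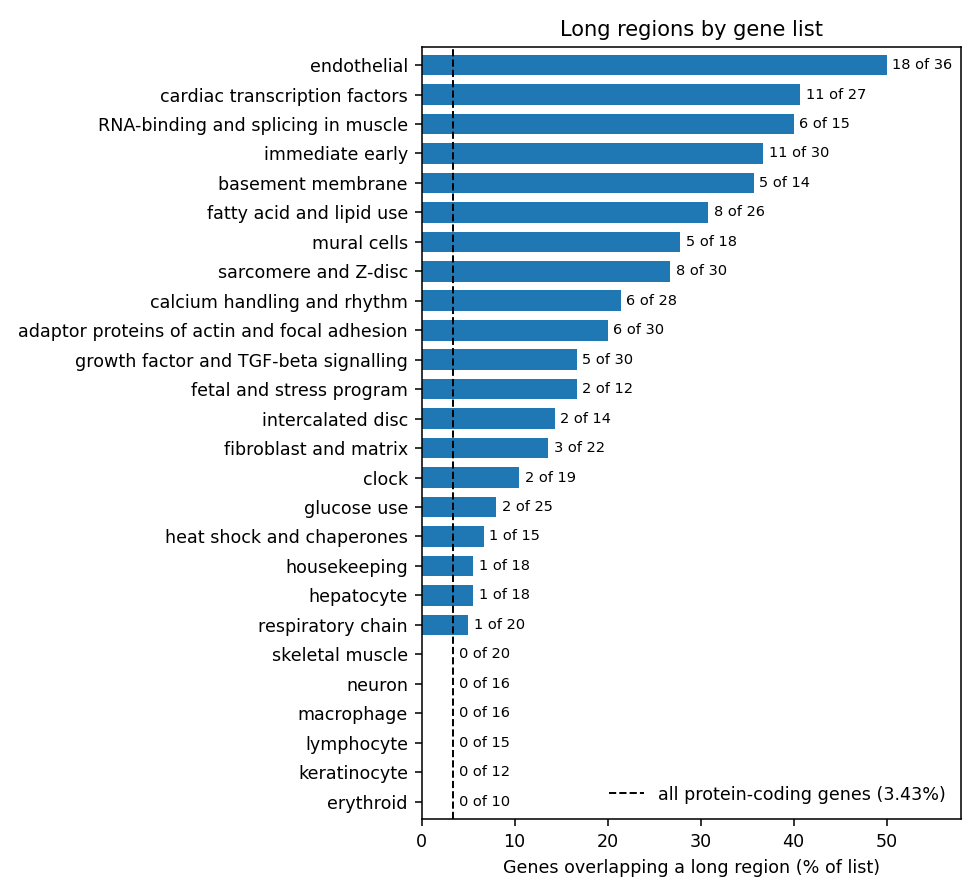
Share of the genes of each of 26 lists that overlap a long region (bars, %), with the number of genes at the end of each bar and the share of all protein-coding genes, 3.43%, as a dashed line. Endothelial genes stand highest, with 18 of 36, and 6 lists have no gene in a long region.

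The regions were placed differently around their genes. In Tns1 and Nrp1 nearly all covered length lay in the gene, with 65.4 of 68.0 kb inside Nrp1. In Ldb3 it was 27.4 kb inside and 4.45 kb before the gene, and in Gata4 29.4 kb inside. At Ppara, at Atp2a2 and in the longer of the 2 Cd36 regions more lay before the gene than in it, with 25.9 kb before and 13.2 kb in Cd36. The same held for Col4a1, with 61.3 kb before its 5′ end, on the side of Col4a2, and 42.6 kb in the gene. For Gata4 the widest peak was centred 26.9 kb inside the annotated gene, at an internal TSS, and for Tns1 it was centred 92.7 kb inside, again at an annotated TSS.

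**Figure D3:**
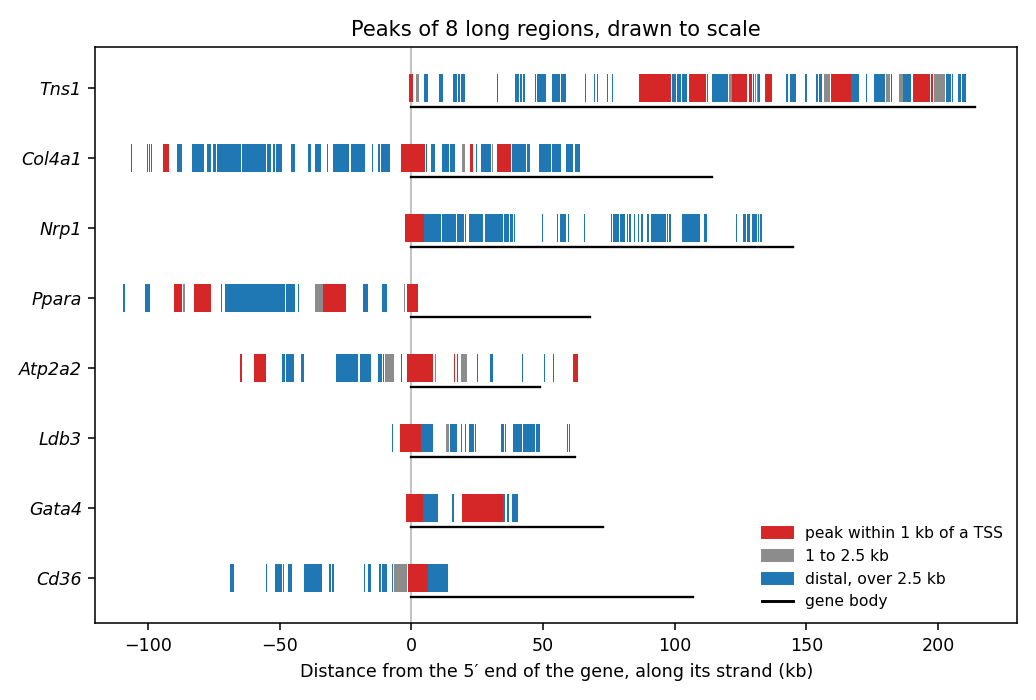
Peaks of 8 long regions drawn to scale against distance (kb) from the 5′ end of the named gene along its strand, red within 1 kb of a TSS, grey at 1 to 2.5 kb and blue when distal, with the gene body as a black line. Peaks are spread along Tns1 and Nrp1, and lie mainly before the gene at Col4a1, Ppara, Atp2a2 and Cd36. For Cd36 the longer of 2 regions is drawn.

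Compared with the rest of the covered genome, the long regions lay more in introns. Introns held 72.4% of their covered length, against 56.1% outside them, exons 10.4% against 16.3% and intergenic sequence 17.3% against 27.5%. Of their peaks 69.5% were distal, against 57.6% outside. The peak of highest fold lay at a TSS in 305 (76.6%), against 51.9% of the 11732 other regions with 2 or more peaks. In 161 of the long regions (40.5%) the widest peak was also the one of highest fold, against 67.3% of those other regions. Long regions hold more peaks, and these shares are descriptions.

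The peaks of long regions were wider but hardly stronger. Distal peaks had a median width of 764 bp inside and 554 bp outside, and width enters the rule. Their median deposited fold was 4.08 (quartiles 3.13 and 6.35) inside and 3.89 (3.09 and 5.49) outside. For peaks at a TSS it was 9.57 and 8.69, and for all peaks 4.46 and 4.55. Of distal peaks 70.5% inside and 65.5% outside had a partner in the list of each single replicate. For peaks at a TSS these shares were 89.3% and 87.4%. The quartiles of fold overlapped widely between inside and outside for each kind of peak.

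The median long region had 32.0% of its covered length in peaks at a TSS. It was 57.8% over the 11 immediate early regions (19.4% to 87.4%), 48.9% over the 11 of cardiac transcription factors (28.6% to 78.7%), 57.7% over the 5 mural regions, 54.1% over the 6 of calcium handling, 53.3% over the 7 of the sarcomere list and 39.2% over the 18 endothelial ones (10.8% to 71.8%). The 6 adaptor protein regions had a median of 36.1%, the 4 of basement membrane genes 24.6% (18.1% to 29.2%) and the 3 of the fibroblast and matrix list 14.2%. The basement membrane values all lay below the median of all 398. When peaks within 2.5 kb of a TSS were left out before joining, 111 long regions remained to be counted, with 110 genes or 0.501%. Immediate early genes then went from 11 to 0 of 30, cardiac transcription factors to 2 of 27 and endothelial genes to 4 of 36. Adaptor proteins had 4 of 30, basement membrane genes 3 of 14 and RNA-binding genes 3 of 15. Median gene length was 5.29 kb for immediate early genes, 76.5 kb for cardiac transcription factors and 41.5 kb for endothelial genes. It was 120 kb for adaptor proteins, 103 kb for basement membrane genes and 117 kb for RNA-binding genes. Genes were assigned by overlap with the gene body, and the part of gene length in these counts was not tested.

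**Figure D4:**
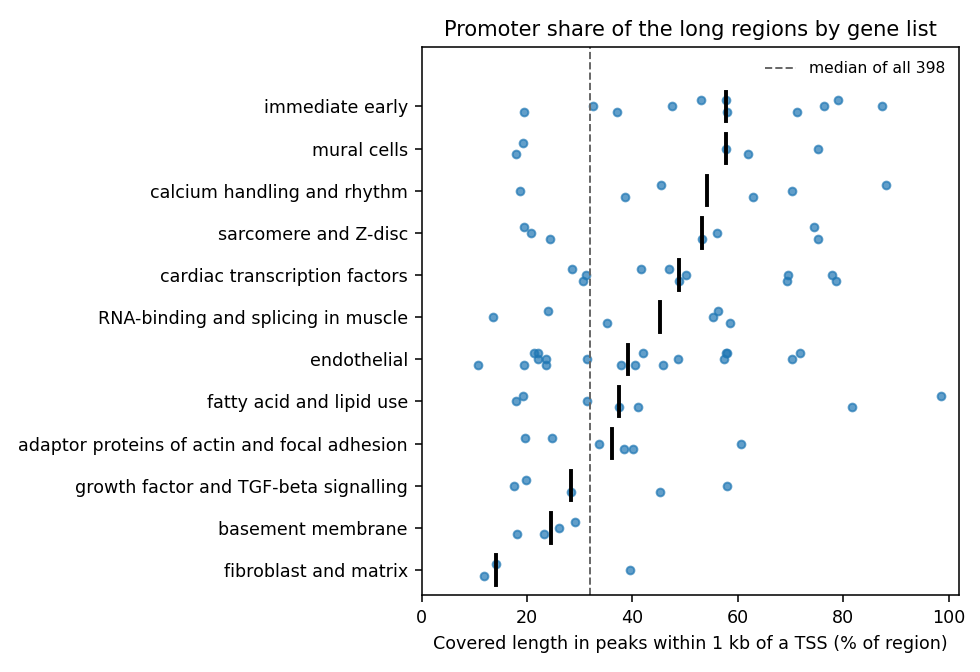
Share of covered length in peaks within 1 kb of a TSS (%) for each long region (points) of the 12 lists with 3 or more regions, with list medians as black bars and the median of all 398, 32.0%, as a dashed line. Points spread widely in most lists, and the 4 basement membrane regions all lie under 30%.

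The 2 pools of hearts could be compared through the authors' lists for each biological replicate. Both come from the libraries behind the replicated list, so they are not independent of the rule. All 398 regions had more covered length in the list of replicate 2. Summed over the regions it was 10.3 Mb in list 1 and 14.2 Mb in list 2, a ratio of 1.37, against 1.49 for the whole lists and 1.40 for the other regions of 2 or more peaks. The ratio ranged from 1.02 to 2.07 over the regions, with quartiles of 1.25 and 1.49. Replicate 1 reached 20 kb in 265 regions (66.6%) and replicate 2 in all 398. With 1 list per replicate there was no test of this difference.

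The ratio was highest at Pik3r1, the regulatory subunit of PI3-kinase, with 12.6 kb in list 1 and 26.0 kb in list 2 (2.07). Fhl2, a LIM protein of heart muscle, followed with 17.9 and 36.2 kb (2.02), then Kank1 with 15.3 and 30.5 kb (1.99). Dlc1 (1.87) and the second Nfix region (1.85) completed the 5 highest, all with under 26 kb in the replicated list. The ratio was lowest at Txnip, the thioredoxin-interacting protein, with 29.0 and 29.6 kb (1.02), and at Klf13, with 48.9 and 51.3 kb (1.05). Next were Anapc16 in a region shared with Ddit4 (1.05), Gm28035 (1.08) and Klf9 (1.08). In the Txnip region peaks covered 95.3% of the span and 98.2% of the length lay in peaks at a TSS. The other list regions stood between, with list medians of 1.21 for immediate early genes, 1.29 for endothelial genes, 1.36 for cardiac transcription factors and 1.5 for the sarcomere.

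**Figure D5:**
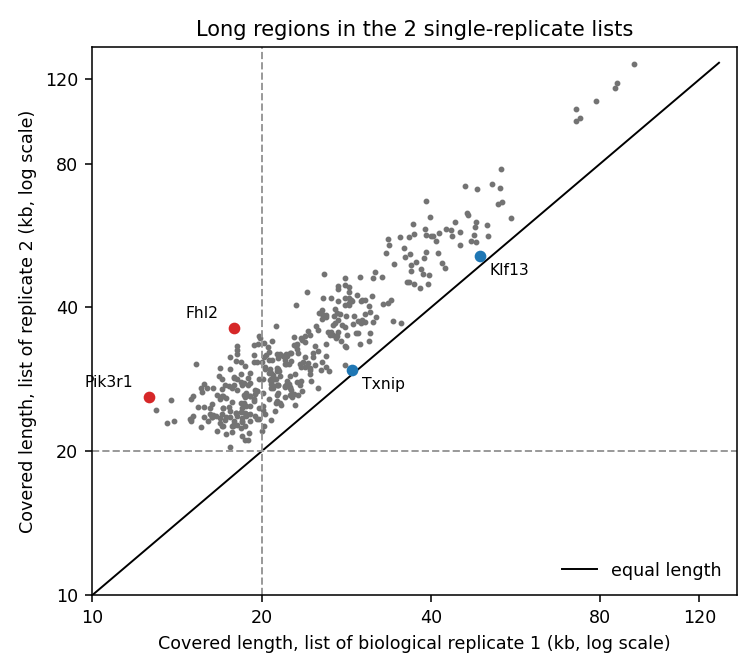
Covered length of each long region in the list of biological replicate 1 (x axis) and replicate 2 (y axis), kb on log scales, with equality as a line and 20 kb as dashed lines. All 398 points lie above the line, from Txnip at 29.0 and 29.6 kb to Pik3r1 at 12.6 and 26.0 kb.

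When the rule was applied to each list on its own, replicate 1 gave 242 long regions, replicate 2 gave 583 and the authors' pooled list 399. Of the 398 members 243 (61.1%) overlapped one from replicate 1 and 395 (99.2%) one from replicate 2. In the other direction 99.6% of the 242 and 66.4% of the 583 overlapped a member.

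Some genes carried more than 1 region. Of all protein-coding genes 17 were overlapped by 2 long regions. The gap between them was just above the joining distance at Rbm20 (12.6 kb), Nfix (12.9 kb), Ablim1 (13 kb), Dusp1 (13.4 kb), Sptbn1 (13.4 kb) and Ets1 (13.8 kb). At Zmiz1, Sgms1 and Daam1 the gap was 99.9, 95.7 and 78.9 kb. Of all members 42 had another within 25 kb. The chromosomes also differed: 39 regions lay on chromosome 11 and 1 on the X chromosome, at Tsc22d3 (27.1 kb), a glucocorticoid-induced gene. That is 2.38 and 0.105 per 100 protein-coding genes. Chromosomes 18, 15 and 19 had more for their genes than chromosome 11, at 3.51, 2.68 and 2.64.

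Of the 21 regions with no protein-coding gene the 5 longest lay nearest to Rad51b (34.2 kb covered, 64.2 kb from the gene), Cstad (34.0 kb, 27.2 kb away), Lrrc74a (33.4 kb, 5.54 kb away), Haao (29.5 kb, 105 kb away) and Klf14 (28.7 kb, 114 kb away). In list 1 the Rad51b region had 28.1 kb and in list 2 it had 40.5 kb. Others lay 30.3 kb from S1pr1, a sphingosine phosphate receptor of endothelium, and 89.6 kb from Ets2. Both genes are on the endothelial list and were counted there as having no long region, since assignment was by overlap. The S1pr1 region had 25.2 kb covered (20.9 kb in list 1 and 27.6 kb in list 2) and no peak at a TSS.

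Distal peaks inside and outside the regions were compared for short consensus sequences in the 200 bases around their summits, 5611 windows inside and 31662 outside. The windows had a median GC content of 49.0% inside and 47.5% outside. The GATA motif, AGATAA, was found in 9.73% inside (95% exact binomial interval 8.97% to 10.5%) and 10.4% outside (10.1% to 10.8%). MEIS (TGACAG) was found in 16.5% and 15.9%, NKX2 (CAAGTG) in 12.4% and 12.5%, and ETS (CAGGAAG) in 9.77% and 9.58%. TEAD (GGAATG) was found in 11.0% and 11.7%, AP-1 (TGANTCA) in 5.67% and 6.02%, and the GC box (GGGCGG) in 3.33% and 3.13%. For these 7 the intervals inside and outside overlapped.

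The E-box CAGCTG was found in 12.4% inside and 12.8% outside, the NFI site TTGGCA in 11.3% and 11.8%, RUNX (TGTGGTT) in 4.44% and 4.47%, and FOX (TGTTTAC) in 2.85% and 3.28%. SOX (ACAATGG) was found in 2.53% and 2.62%, and KLF (CCACACCC) in 2.01% and 1.66%. The rarest were the ERR site TCAAGGTCA, the T-box AGGTGTGA, the STAT site TTCCNGGAA, the SMAD site GTCTAGAC, the CTCF core AGNGGGCGC, the CREB site TGACGTCA and the SRF box, each in under 1% of windows inside and outside. SMAD was found in 0.392% inside (0.246% to 0.593%) and 0.221% outside (0.172% to 0.279%), and the CTCF core in 0.107% and 0.183%. The intervals overlapped for all of them.

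Of the 21 consensus sequences, only MEF2 had intervals that did not overlap, and its share was lower inside: 1.73% (1.40% to 2.10%) against 2.66% (2.49% to 2.85%). In windows of 500 bases the MEF2 difference went from -0.934 to -3.23 percentage points. There the differences of GATA (-2.27), AP-1 (-1.93) and NFI (-2.03) were also larger than with 200 bases (-0.717, -0.356 and -0.552). MEF2 was lower inside in each of 4 classes of deposited fold, from 1.95% against 3.08% in the lowest to 1.58% against 2.03% in the highest. The MEF2 site is rich in A and T, and the windows inside had the higher GC content. The part of composition in the difference was not tested. Intervals cover the counting of peaks only, peaks of a region are neighbours and not independent, and H3K27ac summits lie on nucleosomes, which factors often flank. A match is a run of letters and not a bound site.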

How the data were processed

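The authors deposited 4 peak lists on mm10, per the labels and file headers: replicated peaks from both biological replicates, pooled pseudoreplicated peaks, and pseudoreplicated peaks of replicates 1 and 2. Technical replicates had been joined, so no list holds a value per library. In these lists the score is the authors' display score (not used), the fold is the authors' deposited ratio per peak, and the −log10 p and −log10 q values are the authors' too. No aligner, peak caller or depth is named in the labels or file headers. Hybrid reads were placed on mm10, which can favour C57BL/6J alleles; this was not tested.

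Peaks of the replicated list were joined within 12.5 kb, and the length of peaks summed (Python 3 with numpy and scipy). Genes came from GENCODE M21 on GRCm38, sequence from RefSeq GRCm38.p6. No statistical test was made: there is 1 group and the rule used covered length. Joining and consensus search were tested on simulated data. The members and the 26 gene lists were chosen with earlier results of these data known. Named were genes of the 20 longest regions, up to 4 listed genes per list by covered length, the members nearest the threshold, the 5 extremes of replicate ratio and single-peak share, and the 5 longest regions without a gene; others were named after their values were seen. A match could overlap another on either strand. MEF2 and SRF were searched as patterns that allow alternative letters at some positions, and these patterns are not printed here. Some items that these rules select are not reported here. Alternatives were joining at 5 and 25 kb, thresholds of 15 and 30 kb, stricter peaks, peaks near a TSS left out, other lists, other gene assignments and, for consensus sequences, windows of 500 bases, peaks over 10 kb from a TSS and 4 fold classes.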

Additional observations from a re-analysis of the deposited data

How the results depend on the processing

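The number of long regions depends on the settings. Joined within 5 kb there were 181 regions with 7.69% of covered length and 218 genes, and within 25 kb 659 regions with 34.4% and 2344 genes. A threshold of 15 kb gave 692 regions and 1235 genes, and one of 30 kb gave 145 regions with 9.41% and 283 genes. Peaks at or above the median fold gave 196 regions with 10.9% and 340 genes. Leaving out peaks within 2.5 kb of a TSS gave 111 regions with 9.36% and 110 genes, by construction fewer. Without replicate 2 or without replicate 1 the counts ranged from 242 to 583 regions, 13.4% to 23.6% of covered length and 471 to 1149 genes. The pooled list gave 399 regions, and peaks with −log10 q of 2 or more gave 380. Of the 20 longest regions 8 overlapped the 20 longest when joined within 5 kb and 9 within 25 kb. Of the 20 lists above the share of all genes 10 stayed above it under all 12 alternatives. The 6 lists with no gene as reported stayed below it, but a list with no gene is below any share. Joined within 25 kb, skeletal muscle had 2 of 20 genes and keratinocytes 1 of 12. The lists were chosen with earlier results known, and all alternatives used peaks from the same libraries. Keeping a side is therefore a description and not a test of the lists. The hepatocyte list, with 1 gene, changed side under 8 of the 12, mural cells under 4, the fetal and stress program and housekeeping under 3 each, intercalated disc and heat shock under 2 each, and glucose use, clock and immediate early under 1 each. No consensus with separate intervals changed direction. No paired analysis was possible because the 2 replicates belong to 1 group. Depth is unknown, and so is its part in the difference between the lists.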
